A study of Mus musculus with 15 samples.

Results

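The first time point of an mRNA decay series in proliferating C2C12 mouse myoblasts, called 0 min, was described as a transcriptome in its own right. It comprised 3 of the 15 arrays of the series, 1 from each of 3 replicate time courses, and was chosen by the time given in the sample labels. C2C12 is an established line of muscle precursor cells that multiply in rich serum and, once serum is reduced, join into multinucleated myotubes. The cells were a stable line (LKO1) that carries an empty lentiviral vector under selection with 1 µg/ml puromycin, grown in DMEM with 10% fetal bovine serum to less than 70% confluency. All groups shared this line and actinomycin D at 8 µg/mL, an inhibitor of RNA synthesis, which had been present for 30 min when the 0 min sample was taken. The 12 other arrays came 10, 50, 110 and 230 min later, and no array of untreated cells was analysed here. The levels are therefore those left after 30 min without transcription, and how much of each transcript was lost in that interval was not measured. The labels do not state whether the time courses came from separate cultures, so SDs and p-values measure the spread between these arrays only.

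Myoblasts are committed to muscle by the basic helix-loop-helix factors Myod1 and Myf5, while Myog and Myf6 act as the cells leave the cell cycle and differentiate. While mitogens are present, cyclin D1 and the Id proteins keep these factors from driving differentiation, so a dividing myoblast carries the mRNA of the myogenic factors together with that of the division machinery. The contractile genes of the sarcomere are switched on later. Myoblasts also make an actin stress fibre cytoskeleton, secrete a collagen and fibronectin matrix, and carry receptors for growth factors, Wnt, Notch and TGF-beta ligands.

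Each value is a linear ratio of a probe set to the 5th percentile of its array, as scaled by the authors, and values near 1 therefore belong to the dimmest probe sets. Of 25175 probe sets, 21044 carried a single gene symbol and stood for 19452 genes, each described by its brightest probe set at 0 min. Background was set by 1222 genes for olfactory, vomeronasal and taste receptors, few of which a myoblast is known to use. Their 95th percentile, called the ceiling here, was 1.63, 1.80 and 1.63 in replicates 1, 2 and 3. The limit of abundance, the 90th percentile of all genes, was 22.2, 16.2 and 17.4. On this scale 1645 genes (8.46%) were abundant on each of the 3 arrays, 10584 (54.4%) were intermediate, 5375 (27.6%) were at background on each, and 1848 (9.5%) were mixed, that is above the ceiling on some arrays and not on others. Probe sets differ in how strongly they bind and light up, so a band places a gene within its array and gives no ratio of transcripts between genes. In such bulk RNA, fewer cells of a type and less RNA per cell cannot be told apart.

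**Figure D1:**
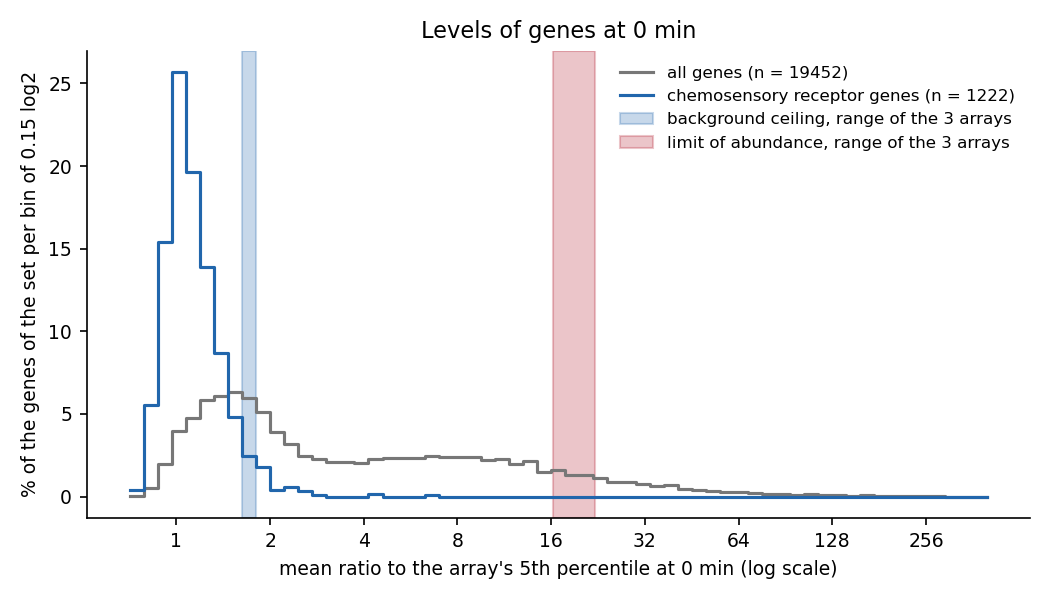
Share of genes (y axis, percent of each set per bin of 0.15 log2) by mean ratio at 0 min (x axis, log scale, mean of 3 arrays), for all 19452 genes in grey and the 1222 chemosensory receptor genes in blue. The chemosensory genes peak near 1, left of the blue bar that spans the ceilings of the 3 arrays (1.63 to 1.80), while all genes stretch to 371, past the red bar that spans the limits of abundance (16.2 to 22.2).

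Of the chemosensory receptor genes themselves, 1129 were at background, 63 mixed and 30 intermediate, so a few genes in the intermediate band are no more than what this yardstick lets through. Genes at the edges show how narrow the steps are. Suz12 was just inside the abundant band, with 23.4, 16.2 and 20.2, and 2610005L07Rik just outside it, with 22.1, 19.1 and 20.9. At the ceiling, Arhgap30 was just inside the intermediate band with 1.64, 1.93 and 1.89, and A3galt2 just inside the background band with 1.47, 1.78 and 1.63.

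The bands also differed in the base composition of their promoters, given here as a description. RefSeq windows of 300 bases (250 before to 50 after a transcript start, build GRCm38.p6) were matched by symbol for 15503 of the 19452 genes. The median window held 23 CG dinucleotides for abundant genes, 20 for intermediate genes and 3 for genes at background, and GGGCGG was found on either strand in 68.7%, 61.2% and 20.3% of them, against 49.4% of all windows. TATAAA, the core of the TATA box, was found in 7.92%, 6.99% and 21.9%, against 11.5% of all windows, so that background genes held it most often of the 3 bands. The chemosensory receptor genes, most of which are in the background band, held a median of 1 CG. They held TATAAA in 40.2% and GGGCGG in 0.863% of their 1043 windows. The shares of the 4890 background windows include most of these genes and are not those of other silent genes alone. Such shares count letters in a window, and whether a factor binds there was not measured.

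The 20 genes with the highest means encode the proteins that growing cells make in bulk. They included the ribosomal proteins Rplp0, Rpl10, Rps2, Rps18, Rps6, Rpl21, Rplp1 and Rpl19, the translation factors Eef1a1, Eif4a1 and Pabpc1, the actins Actb and Acta2, the intermediate filament Vim, and Lgals1, Fth1, Ppia, Hspa8 and Ldha. Eef1a1, which brings aminoacyl-tRNA to the ribosome, was 315, 259 and 283, and Actb, the cytoplasmic beta actin, was 299, 249 and 262. All 20 were abundant on each array, and all 20 were again abundant at 230 min, as were 85.6% of all abundant genes. The nominal leader was Baiap2l1, with 399.8, 342 and 373, but its 3 probe sets had means of 371, 101 and 4.68, so this level belongs to a single probe set and not to the gene as a whole. Hk1, a hexokinase, likewise had probe sets at 168 and 17.4. Of 876 genes with several probe sets, 254 had them in more than 1 band, and 2 had an abundant probe set and another at background.

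The 4 markers of proliferating myoblasts were all above the ceiling. Myod1, the factor that commits cells to muscle, was 30.0, 27.4 and 24.6 in replicates 1 to 3, with a mean of 27.3 ± 2.74 (SD, n = 3), and was abundant. Des, the muscle intermediate filament desmin, was 50.9, 40.1 and 35.9. Ccnd1, cyclin D1, which carries cells from growth factor signals into the cycle, was 83.6, 50.3 and 58.4. Both were abundant on every array. Myf5 was 5.74, 6.02 and 4.62, well over the ceiling and below the limit of abundance on every array.

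Among 24 measured myogenic regulators, 1 was abundant, 17 were intermediate, 3 mixed and 3 at background, against 8.46%, 54.4%, 9.5% and 27.6% of all genes. Myog, which drives differentiation, was 3.14, 2.98 and 2.25, and Pax7, the transcription factor of satellite cells, was 3.19, 2.67 and 3.11. Both lay above the ceiling on every array, by little. With the ceiling at the 95th percentile of liver and other organ secretory genes, or at the median of all genes, both were mixed. Pax3 was 1.51, 1.74 and 1.73, over the ceiling in replicate 3 alone, and Myf6 was 1.33, 1.70 and 1.33, at or under it on all 3. The E proteins that pair with the myogenic factors were intermediate, with Tcf3 at 18.7 ± 1.37 and Tcf12 at 16.8 ± 1.15. So were their antagonists Id1, Id2 and Id3. Id2 was 28.7, 15.8 and 29.7 and Id1 was 16.6, 8.00 and 14.8, each lowest in replicate 2, where Id2 was under the limit of abundance, whereas Id3 stayed within 11.2 to 13.7. The MADS-box factors that cooperate with Myod1 were also intermediate. Srf was 16.1 ± 2.64, Mef2a 14.3 ± 2.21, Mef2d 12.9 ± 2.07 and Mef2c 4.06 ± 0.41 (SD, n = 3 for each).

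**Figure D2:**
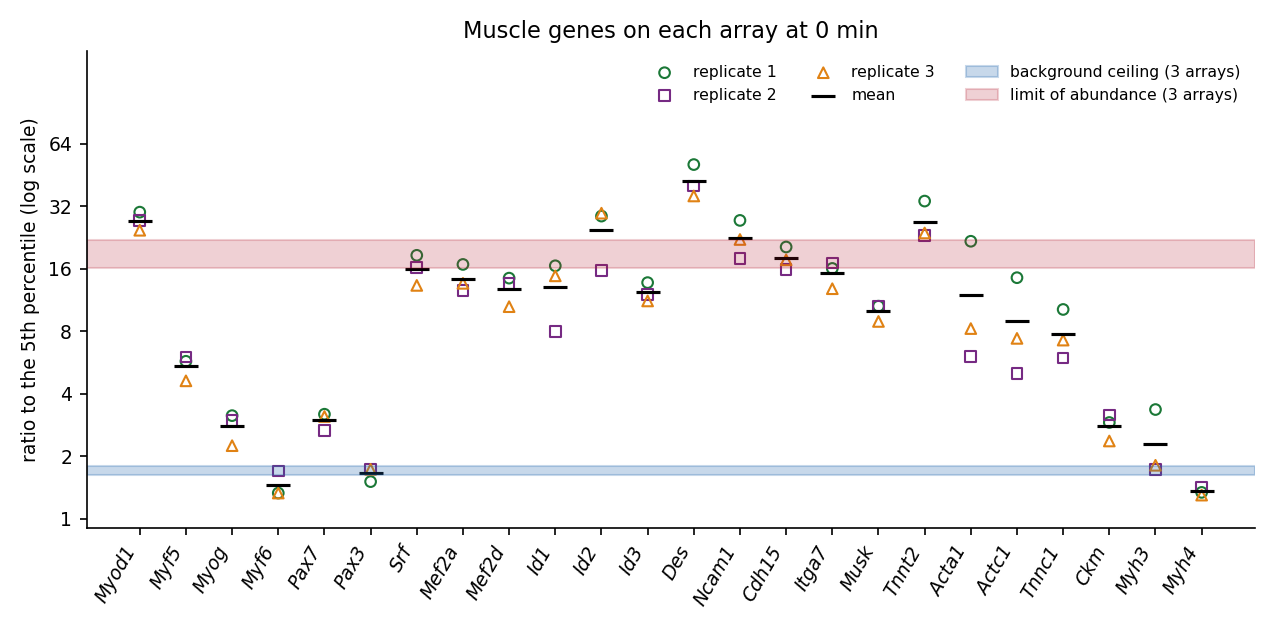
Ratio to the array's 5th percentile (y axis, log scale) of 24 muscle genes on each of the 3 arrays at 0 min (symbols) with their mean (black bar). The blue and red bands span the ceilings and the limits of abundance of the 3 arrays; Myod1, Des and Tnnt2 lie above the red band on all 3 arrays, Myh4 lies below the blue one, and Acta1 and Actc1 are spread the widest, with replicate 1 on top.

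Membrane and early muscle genes were mostly well represented, with 6 abundant, 22 intermediate, 1 mixed and 2 at background among 31, and a median level of 10.3 against 2.71 over all genes. The abundant members were Des, Nes, Sdc4, Met, Ncam1 and Jam2. Met, the receptor for hepatocyte growth factor, was 32, 17.7 and 23.0, and Ncam1, a neural cell adhesion molecule found on myoblasts, was 27.4, 17.9 and 22.2. The muscle cadherin Cdh15 was 20.4, 15.9 and 17.7 and the laminin receptor subunit Itga7 was 16.1, 17.1 and 12.8, both intermediate. Parts of the neuromuscular junction were already measured above background, with Musk, its receptor kinase, at 10.0 ± 0.964 and Chrna1, an acetylcholine receptor subunit, at 10.3 ± 2.24 (SD, n = 3). The fusion proteins Mymk and Mymx were low, at 3.50 ± 0.984 and 2.30 ± 0.526. Dmd, the gene of dystrophin, was 1.07, 1.22 and 1.06 and Calcr was 1.55, 1.49 and 1.51, at background on each array; the single probe set of a gene may miss some of its isoforms.

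The sarcomere and muscle differentiation list was the lowest of the muscle groups, with a median of 1.98. Of its 58 genes, 4 were abundant, 30 intermediate, 15 mixed and 9 at background. The abundant ones were Tpm3, Eno3, Tpm2 and Tnnt2. Tpm3 and Tpm2 encode tropomyosins that are also part of non-muscle actin filaments, and Eno3 is the muscle enolase, at 131, 77.4 and 87.8. Tnnt2, the cardiac troponin T of embryonic muscle, was 34, 23.2 and 23.8. The adult fast myosin heavy chains Myh1, Myh2 and Myh4 were at background on each array, as were Casq1, Ckmt2, Trdn and Smpx, genes of the mature fibre. Ckm, muscle creatine kinase, was 2.91, 3.16 and 2.37, low but over the ceiling on every array. With the ceiling at the 99th percentile of the chemosensory genes 32 of the 58 were at background in place of 9.

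In the sarcomere list 4 genes had a range over 2-fold between arrays. Acta1, skeletal alpha actin, was 21.7, 6.07 and 8.25, and Actc1, cardiac alpha actin, which myoblasts express as they begin to differentiate, was 14.5, 5.0 and 7.40. The others were Myl4, the atrial and embryonic myosin light chain, at 5.13, 2.15 and 3.32, and Myl1, a fast myosin light chain, at 2.51, 1.11 and 1.38. All 4 were highest in replicate 1 and lowest in replicate 2, and Myl1 was under the ceiling in replicates 2 and 3. Such an order is common among genes picked by their range: of 308 genes over 2-fold, 275 remained with replicates 1 and 2 alone. Of all intermediate genes, 60.7% were highest in replicate 1 and 37.2% lowest in replicate 2. Myh3, embryonic myosin heavy chain, was 3.36, 1.73 and 1.81. For the differentiation factor Myog the highest and lowest arrays were 3.14 and 2.25.

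In the cytoskeleton of stress fibres and smooth muscle, by contrast, 23 of 28 measured genes were abundant, 5 were intermediate and 0 were mixed or at background. The median level was 56.2. Acta2, smooth muscle alpha actin, was 276, 196 and 246, and Flna, the actin crosslinker filamin A, was 162, 104 and 129. The myosin subunits Myh9, Myl6, Myl9, Myl12a and Myl12b were abundant, as were the alpha actinins Actn1 and Actn4 and the focal adhesion genes Vcl, Tln1 and Zyx. Tagln, or SM22, was 46.1, 17.4 and 29.8, with replicate 2 the lowest, as for 70.8% of all abundant genes. Late smooth muscle genes were lower. Cnn1 was 8.94, 4.54 and 5.94 and Myh11, smooth muscle myosin, was 1.85, 2.15 and 1.81. All 23 abundant members were abundant again at 230 min, as were 85.6% of all abundant genes.

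Promoters of these muscle genes are shown for their letters upstream of the start. The CArG box, the A/T-rich sequence that serum response factor binds, was found in 15.4% of 26 windows of the stress fibre list and 13.0% of 54 windows of the sarcomere list, against 1.42% of all 19045 windows and 1.88% of those of abundant genes. Actc1 and Acta1 are printed because their levels varied most among the sarcomere genes, each with 1 CArG box in capitals, whose first base lies 47 and 73 bases before the start. Myog is printed with CANNTG in capitals, the E-box core that myogenic factors bind, found in 68.2% of all windows. The sequences are the 250 bases before the RefSeq start, 5′ to 3′ on the strand of the gene, from GRCm38.p6 (chr2:114052876-114053125, minus strand; chr8:123894776-123895025, minus strand; chr1:134289754-134290003, plus strand).
Actc1: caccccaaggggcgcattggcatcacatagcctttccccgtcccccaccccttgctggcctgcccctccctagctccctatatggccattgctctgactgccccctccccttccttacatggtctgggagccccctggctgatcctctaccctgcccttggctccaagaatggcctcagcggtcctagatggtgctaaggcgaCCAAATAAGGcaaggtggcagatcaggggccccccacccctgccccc
Acta1: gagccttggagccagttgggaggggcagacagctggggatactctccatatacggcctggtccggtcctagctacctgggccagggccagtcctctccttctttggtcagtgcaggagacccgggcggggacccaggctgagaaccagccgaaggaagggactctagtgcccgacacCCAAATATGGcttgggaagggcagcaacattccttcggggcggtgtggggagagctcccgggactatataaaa
Myog: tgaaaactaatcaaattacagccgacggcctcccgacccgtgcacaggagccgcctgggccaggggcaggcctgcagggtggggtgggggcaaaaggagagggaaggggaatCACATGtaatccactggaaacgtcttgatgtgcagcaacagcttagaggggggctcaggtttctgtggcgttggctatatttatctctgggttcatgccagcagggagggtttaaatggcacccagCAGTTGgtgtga
The first CANNTG of Myog lies 138 bases and the second 12 bases before the start.

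Fibroblast and mesenchymal markers were divided. Of 31 measured, 4 were abundant, 17 intermediate, 4 mixed and 6 at background. These shares were 12.9%, 54.8%, 12.9% and 19.4%, against 8.46%, 54.4%, 9.5% and 27.6% of all genes. Vim, the intermediate filament of mesenchymal cells, was 302, 237 and 258, and S100a4 and S100a6, small calcium-binding proteins, were 74.5 ± 9.12 and 76.7 ± 15.8 (SD, n = 3). Pdgfrb, a receptor for platelet-derived growth factor, was 29.3, 38.8 and 30.5 and abundant, and its relative Pdgfra was 4.23, 4.79 and 5.14 and intermediate. Members at background were Tcf21, Cxcl14, Gpx3, Dpt, Fap and Lum. Lum, the proteoglycan lumican, was 0.97, 1.00 and 0.95, Fap, fibroblast activation protein, was 1.03, 1.08 and 1.15, and Dpt, dermatopontin, was 1.28, 1.15 and 1.21. Dcn, decorin, was mixed at 1.63, 2.04 and 1.51. Of the transcription factors of mesenchymal cells, Twist1 was mixed, and Prrx1 at 16.7 ± 2.37, Twist2 at 13.3 ± 1.74 and Snai1 at 9.26 ± 0.687 were intermediate.

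Of 40 collagen genes, all of which were measured, 7 were abundant, 31 intermediate and 2 mixed. The abundant genes were the fibrillar collagens Col1a1, Col1a2, Col3a1 and Col5a2, Col12a1, which binds to fibrils, and Col6a1 and Col6a3 of the microfibrils. Col1a2 was 145, 129.5 and 136 and Col1a1 was 97.9, 95 and 114. The median CV over the list was 10.7%, against 11.9% over all genes. The basement membrane chains Col4a1 and Col4a2 were intermediate, and the cartilage collagen Col10a1 was mixed at 1.86, 1.96 and 1.60. Many of the other collagens were low. With the ceiling at the 99th percentile of the chemosensory genes 5 were at background, against 0 here.

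Matrix glycoproteins and proteoglycans had 21 abundant, 31 intermediate, 4 mixed and 9 background members among 65 measured. Fn1, fibronectin, was 174, 153 and 149.7, Sparc, a collagen-binding protein, was 138, 129 and 129, and Thbs1, thrombospondin, was 137, 130.3 and 104. Bgn, biglycan, and Vcan, versican, were abundant at 61.8 ± 14 and 53.4 ± 10.2 (SD, n = 3). The laminin chains were uneven: Lamb1 and Lamc1 were abundant, Lama2, Lama5 and Lamb2 intermediate, Lama1 mixed, and Lama3 and Lama4 at background. Ccn1 and Ccn2, growth-factor induced matricellular proteins, were 67.6, 57.2 and 37.0 and 50.4, 34.4 and 32.5. Of the 21 abundant members, 19 were abundant again at 230 min, near the 85.6% of all abundant genes. Ccn1 and Ccn2 were those that left the band.

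Among 53 measured matrix enzymes and their inhibitors, 16 were abundant, 25 intermediate, 3 mixed and 9 at background. The collagen-making enzymes P4hb and Lox were 115 ± 10.9 and 49.6 ± 4.56, and the protease inhibitors Timp1, Timp2 and Timp3 were abundant. Among matrix metalloproteinases, the membrane-bound Mmp14 was 58.4, 46.2 and 47.5, Mmp2 was 6.58, 7.93 and 6.02, and Mmp3, Mmp8, Mmp9, Mmp12, Mmp13 and Mmp16 were at background on each array. The hyaluronan synthase Has2 was 44.5, 19.6 and 31.8, lowest in replicate 2 as were 70.8% of all abundant genes, while Has3 was at background.

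All 136 measured genes of the cell cycle lists were above the ceiling on each array, with 49 abundant and 87 intermediate. Over all genes 12229 of 19452 were above it on each array, and 8.46% were abundant. In the list of G1 cyclins, kinases and inhibitors, 5 of 30 were abundant: Cdk4, Ccnd1, Ccnd2, Cdk2 and Tfdp1. Cdk4, the kinase partner of cyclin D, was 131, 90.6 and 104. Ccne1, cyclin E1, was 22.7, 11.8 and 14.6 and intermediate. The inhibitor Cdkn1b (p27) was 11.6, 11.9 and 10.1, Cdkn2b (p15) was 3.05, 3.17 and 2.59 and Cdkn2a, the locus of p16 and p19, was 2.00, 2.70 and 2.44, above the ceiling on every array. A ceiling at the 95th percentile of liver and other organ secretory genes was 2.47, 2.93 and 2.54. Under it Cdkn2a was at background on every array and 2 DNA replication genes were mixed. Cdkn1a had no probe set with a single symbol and was not analysed here.

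For DNA replication, 16 of 47 genes were abundant and 31 intermediate, against 8.46% and 54.4% of all genes. The median level was 17.2. Pcna, the sliding clamp of the polymerases, was 109, 75.4 and 89.1, and the ribonucleotide reductase subunits Rrm1 and Rrm2 were 86.0, 51.7 and 63.2 and 83.3, 46.4 and 63.8. Each of the MCM helicase subunits Mcm2 to Mcm7 was abundant. The lowest member was Rpa3, at 3.62, 2.80 and 2.98, while its partners Rpa1 and Rpa2 were abundant and intermediate.

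The mitosis list had the highest median of the cycle lists, 21.3. Of its 59 genes 28 were abundant and 31 intermediate, against 8.46% and 54.4% of all genes. Top2a, which untangles sister chromatids, was 62.7, 39.5 and 49.3, Ccnb2, a B-type cyclin, was 48.4, 40.2 and 40.4, and Cdk1 was 53.8, 29.6 and 44.7. Mki67, the proliferation marker, was 41.7, 28.8 and 42.5. Replicate 2 was the lowest for all 4, as it was for 70.8% of all abundant genes. Racgap1, of the cytokinetic machinery, was the highest of the list at 73.9 ± 10.0 and Kif18a, a kinesin, the lowest at 5.85 ± 0.48 (SD, n = 3). Over the 3 lists the median CV was 22.3%, against 18.7% in the abundant band and 13.8% in the intermediate band.

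Promoters of mitotic genes are shown for their CCAAT boxes. CCAAT, on either strand, was found in 73.1% of 52 windows of the mitosis list and 61.2% of 49 of the DNA replication list, against 39.3% for the G1 list, 39.7% for abundant genes and 37.4% of all windows. This is the box that the factor NF-Y is known to bind in cell cycle promoters. Top2a holds 6 copies in the 250 bases before its start and Ccnb2 holds 3, in capitals as CCAAT or, on the other strand, ATTGG (GRCm38.p6, chr11:99024190-99024439, minus strand; chr9:70421555-70421804, minus strand).
Top2a: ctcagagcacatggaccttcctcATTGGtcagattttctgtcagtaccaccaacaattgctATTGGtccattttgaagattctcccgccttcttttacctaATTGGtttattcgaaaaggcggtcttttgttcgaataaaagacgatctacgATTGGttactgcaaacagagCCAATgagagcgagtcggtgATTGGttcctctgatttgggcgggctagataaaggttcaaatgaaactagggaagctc
Ccnb2: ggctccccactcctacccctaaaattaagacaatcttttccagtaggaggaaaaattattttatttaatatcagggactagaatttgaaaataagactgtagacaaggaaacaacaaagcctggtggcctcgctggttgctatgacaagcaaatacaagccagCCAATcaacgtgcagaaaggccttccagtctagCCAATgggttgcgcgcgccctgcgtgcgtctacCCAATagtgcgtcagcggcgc
In Ccnb2 the copies begin 87, 54 and 21 bases before the start, all on the strand of the gene, whereas in Top2a most lie on the other strand.

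Receptors spanned all bands. Of 280 measured receptor and adhesion genes, 24 were abundant, 166 intermediate, 28 mixed and 62 at background. These shares, 8.57%, 59.3%, 10% and 22.1%, were near the 8.46%, 54.4%, 9.5% and 27.6% of all genes. Of 51 receptor tyrosine kinases, 5 were abundant (Axl, Pdgfrb, Ryk, Ddr2 and Met) and 12 at background. Axl was 54.9, 36.7 and 38.4 and the collagen receptor Ddr2 was 32.5, 23.0 and 24.4. Fgfr1, the fibroblast growth factor receptor of dividing myoblasts, was 21.1, 18.9 and 19.1 and intermediate, Fgfr4 was 1.66, 2.21 and 1.91, close to the ceiling, and Fgfr2 was at background. The insulin-like growth factor receptor Igf1r was 10.2, 9.14 and 9.23 and the insulin receptor Insr was 8.35, 10.8 and 8.54. The neurotrophin receptors Ntrk2 and Ntrk3, the endothelial receptors Kdr and Tek, and Epha3, Epha5 and Epha7 were at background on each array.

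In the TGF-beta, Notch, Wnt and Hedgehog receptor list, 2 of 38 genes were abundant, 29 intermediate, 4 mixed and 3 at background. Gas1, a co-receptor for Hedgehog ligands, was 23.2, 33.2 and 25.2, and Notch2 was 25.6, 21.7 and 22.7. Notch1, whose signal restrains myogenesis, was 12.5, 12.8 and 11. Tgfbr1 and Tgfbr2, the receptor pair for TGF-beta, were 9.98 ± 2.15 and 8.23 ± 0.529 (SD, n = 3), and the Hedgehog transducer Smo was 21.9, 13.7 and 19.4. With the limits of that time, Gas1 and Notch2 were no longer in the abundant band at 230 min, whereas Smo had entered it. On the deposited scale 37 of the 38 genes fell and 0 rose, so Smo was not called as risen. Of all 19452 genes 72.4% fell on that scale. After quantile normalization 8 of the 38 fell and 3 rose.

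Cytokine and death receptors had 2 abundant, 27 intermediate, 2 mixed and 8 background members among 39. Il6st (gp130), the shared subunit of the receptors for interleukin 6 and LIF, was 28.7, 22.1 and 24.4, and Tnfrsf12a, the receptor for TWEAK, was 42.5, 21.4 and 29.4. The partners of Il6st were intermediate, with Lifr at 14.5 ± 2.04, Osmr at 9.05 ± 1.74 and Il6ra at 4.67 ± 0.927 (SD, n = 3). The lymphocyte receptors Il2ra, Il2rb and Il7r were at background.

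Integrins and other adhesion receptors held 13 abundant, 27 intermediate, 4 mixed and 10 background genes among 54. Itgb1, the beta chain that most integrins share, was 99.2, 68.7 and 76.6, and the tetraspanins Cd81, Cd82 and Cd9 were 82.8 ± 12.3, 61.8 ± 10.9 and 58.6 ± 10.3 (SD, n = 3). Of the alpha chains, Itga5 and Itgav, which bind fibronectin and vitronectin, and Itga6, which binds laminin, were abundant. Itga5 was 47.6, 24.9 and 29.4. Itga3 and Itga7 were intermediate, and Itga1, Itga4, Itga8, Itga9, Itgae, Itgam and Itgax were at background.

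Of 55 G protein-coupled receptors, 2 were abundant, 31 intermediate, 5 mixed and 17 at background. The abundant ones were Adgre5 (CD97), an adhesion receptor, and F2r, the thrombin receptor, at 37.6, 29.7 and 25.7. Receptors for sphingosine-1-phosphate and lysophosphatidic acid, lipids of serum, were intermediate, among them S1pr1 at 8.25 ± 0.914, S1pr2 at 5.66 ± 0.0458, S1pr3 at 7.36 ± 1.26 and Lpar1 at 11.5 ± 1.21 (SD, n = 3). With the ceiling at the 99th percentile of the chemosensory genes 24 were at background in place of 17.

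Of 43 nuclear receptors, 0 were abundant, 26 intermediate, 5 mixed and 12 at background. The share at background, 27.9%, was near the 27.6% of all genes, of which 8.46% were abundant. Rarg, a retinoic acid receptor, was the highest at 19.0, 15.5 and 16.3. Nr3c1, the glucocorticoid receptor, was 11.6, 9.15 and 9.06, Vdr, the vitamin D receptor, was 13.1, 13.9 and 9.80, and Thra, the thyroid hormone receptor of muscle, was 12.3, 14.4 and 9.65. Pparg, known for its role in fat cells, was 12.5, 13.2 and 10.4. The related subtypes Thrb, Rarb and Rxrg were at background, as was Nr4a3 at 1.33, 1.52 and 1.41.

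The ribosomal list had the highest median of the 24 lists. Of 55 measured cytosolic ribosomal protein genes, 47 were abundant and 8 intermediate, with a median level of 111; the other 24 of the 79 genes had no probe set with a single symbol. Ribosomal protein genes have processed copies in the genome, several had up to 9 probe sets, and the signals of the copies cannot be told apart here, so their levels are uncertain. Of 14 glycolysis genes 9 were abundant, with a median level of 54.8. Ldha, which makes lactate, was 221, 149 and 186, and its relative Ldhb was 1.81, 2.28 and 2.07.

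Markers of other cell types had a low median and were divided. Of 115 measured genes of fat, bone, cartilage, epithelium, endothelium, blood, nerve and organ secretory cells, 1 was abundant, 39 intermediate, 23 mixed and 52 at background, with a median of 1.65 against 2.71 over all genes. Among 18 blood cell markers 12 were at background, including Ptprc (CD45), and among 33 organ secretory genes 21, including Alb, albumin. The endothelial markers Cdh5, Kdr and Tek and the epithelial marker Epcam were at background as well. Other lists held more genes above the ceiling on every array. These were 12 of 21 neural and glial markers, of which 5 were at background, 10 of 21 markers of fat, bone and cartilage, and 8 of 22 epithelial and endothelial markers. Over all genes 12229 of 19452 were above it on every array and 27.6% were at background, so none of these lists exceeded the share of all genes. These counts depend on the ceiling. With it at the 99th percentile of the chemosensory genes 10, 14 and 15 genes of the 3 lists were at background, in place of 5, 7 and 7. Stmn2, a microtubule regulator best known in neurons, was 47.7, 57.7 and 48.3 and abundant, the keratins Krt14 and Krt19 were 19.8, 16.3 and 16.4 and 13.0, 13.5 and 8.8, and Sox9, a cartilage factor, was 11.5, 9.04 and 10.0. Krt5, which pairs with Krt14 in epithelia, was at background, and Cdh1, E-cadherin, was mixed.

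**Figure D3:**
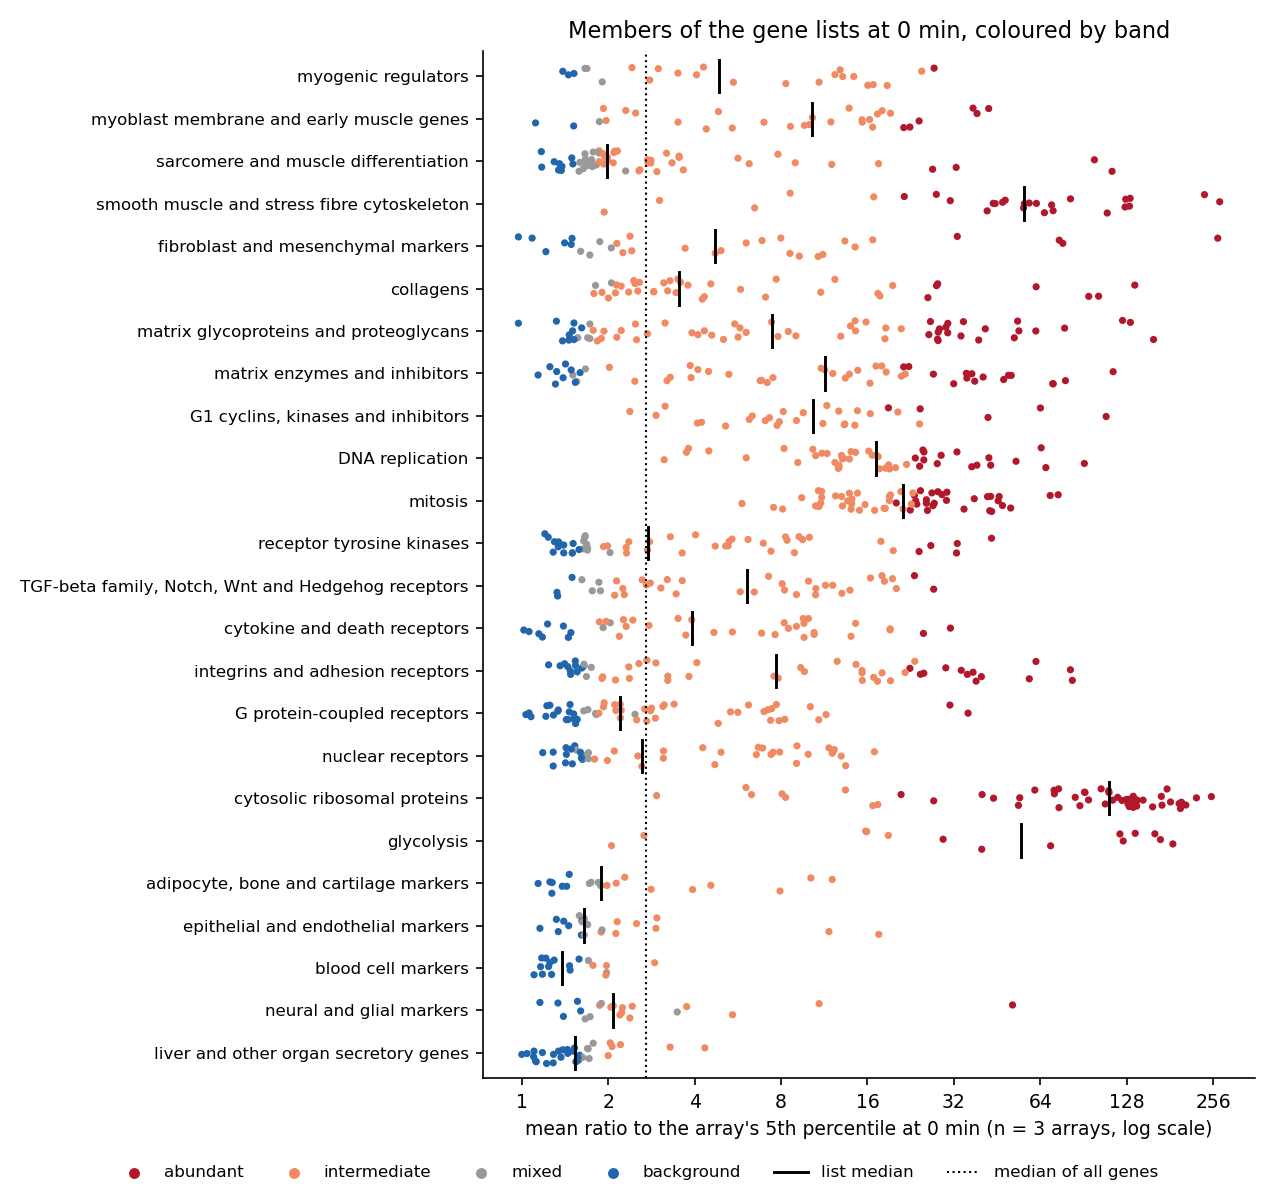
Mean ratio at 0 min (x axis, log scale, n = 3 arrays) of every measured member of the 24 gene lists (points, coloured by band), with the list median as a black bar and the median of all genes, 2.71, as a dotted line. The ribosomal, stress fibre, glycolysis and mitosis lists lie to the right, the muscle differentiation list has its median at 1.98, and the blood and organ lists lie at the left edge.

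The 3 arrays ranked genes in nearly the same order. Over 19452 genes, which are not independent replicates, the Pearson correlation of log2 ratios was 0.984 for replicates 1 and 2, 0.993 for 1 and 3 and 0.985 for 2 and 3. Each array taken alone gave 16998 genes (87.4%) the same band on all 3, and 0 genes were abundant on an array and at background on another. Dispersion depended on the level. The median CV was 7.35% at background, 13.8% in the intermediate band and 18.7% in the abundant band, where 93.4% of genes were highest in replicate 1 and 70.8% lowest in replicate 2. In the abundant band replicate 1 was above replicate 2 by a median of 0.48 log2 and above replicate 3 by 0.33, although the medians over all genes differed by 0.04 and 0.15. The arrays share their 5th percentile by construction, so a difference at the top of the scale is relative to the dimmest probe sets.

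For 308 genes (1.58%) the highest and lowest arrays differed by more than 2-fold. Of these 72 were abundant, 225 intermediate, 11 mixed and 0 at background. Among genes above the ceiling on all 3 arrays the widest range was that of Dynap, at 62.6, 12.7 and 38. Nhp2, a protein of box H/ACA ribonucleoproteins, was 61.7, 17.1 and 43.0. Both were chosen after their values were seen, and both were lowest in replicate 2. Without replicate 2 the number over 2-fold was 13, without replicate 1 it was 48 and without replicate 3 it was 275, each counted over the 2 arrays left, so most of the wide ranges were between replicates 1 and 2. After quantile normalization over the 3 arrays 81 genes exceeded 2-fold.

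**Figure D4:**
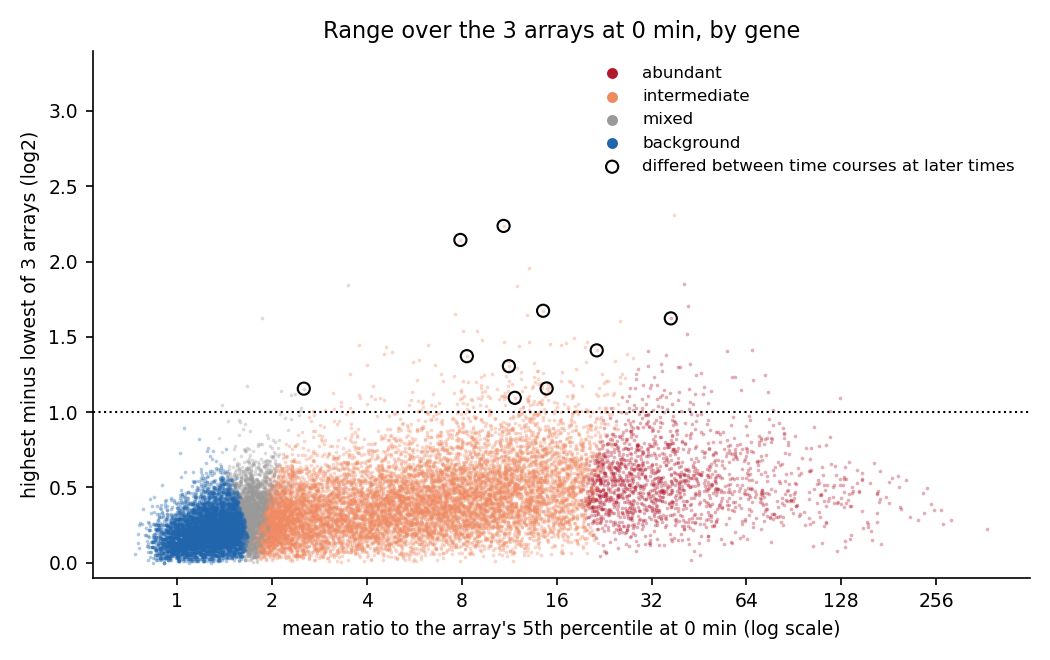
Range over the 3 arrays at 0 min (y axis, highest minus lowest, log2) against the mean ratio (x axis, log scale) for 19452 genes coloured by band. The dotted line marks a 2-fold range, exceeded by 308 genes, none of them at background; circles mark the 10 genes that differed between the time courses at the later times.

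Whether such differences belonged to a time course was tested on the 12 later arrays, which share no array with 0 min. With limma's F test of the replicate number, time as a factor, 10 of 19452 genes (0.0514%) passed a Benjamini-Hochberg adjusted p of 0.05. For all 10 replicate 2 was the highest or the lowest course at all 5 times. The genes were chosen on the later times, so 0 min alone is apart from that choice. Nefl, the light neurofilament chain, was 19.3, 4.09 and 9.21 at 0 min and differed by -2.0 log2 between replicates 2 and 1 over the later times (limma F test, adjusted p = 0.00754). Serpinb2, an inhibitor of plasminogen activators, was 13.9, 3.15 and 6.69. Ogn, the small proteoglycan osteoglycin, ran the other way, with 13.0, 23.2 and 7.28, as did Aspn, asporin of the same family, with 2.63, 3.41 and 1.53. Both were highest in replicate 2 at every time. At 0 min Aspn was in the mixed band, since replicate 3 was under the ceiling. Prl2c5, a placental prolactin relative of the proliferin group, was 55.8, 18.1 and 36.5, and its near-identical relatives make its level uncertain. The others were Nop2, an rRNA methyltransferase, at 31.3, 11.8 and 21.2, and Nol8, Rrp12, Lyar and Heatr3, which have roles in the nucleolus or in making ribosomes and were all lowest in replicate 2. For the 9 genes other than Nefl the adjusted p of limma's F test lay between 0.0424 and 0.0428. Aspn, Ogn and Nol8 lie in 1 cluster of neighbouring genes in the RefSeq annotation, with Omd between Aspn and Ogn and Iars after Nol8. Looked up after these values were seen, Omd, another small proteoglycan, was at background (1.21, 1.22 and 1.12) and Iars, a tRNA synthetase, was 58.1, 29.3 and 50.4. Ogn and Aspn were highest and Nol8 and Iars lowest in replicate 2. Ogn, Aspn and Nol8 had been chosen because they differed between courses. Iars was at an abundant level, where 70.8% of all genes were lowest in replicate 2.

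The count of such genes depended strongly on the treatment of the values. It was 546 with all 15 arrays, 605 after division by array medians, 2539 after quantile normalization, 743 with dim genes left out and 366 with a trended, robust variance. All 10 genes were among those called under each of these, except that 9 were called with dim genes left out. Without the 10 min or the 50 min arrays 0 genes passed limma's test. At an unadjusted p under 0.05 there were then 1038 and 1200 of 19452 genes, against 2097 in the test above. The 1038 and 1200 are little above the share of 0.05 that this threshold passes where nothing differs. Without the 110 min or the 230 min arrays 198 and 34 passed. As a description over 12229 genes above the ceiling, 652 deviated by more than 0.5 log2 from the mean of the 3 arrays in replicate 2 at 0 min, each array centred on its median, and 641 of them (98.3%) had the same sign in the later arrays of that course. For replicate 1 these counts were 254 and 241, and for replicate 3 they were 14 and 13.

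**Figure D5:**
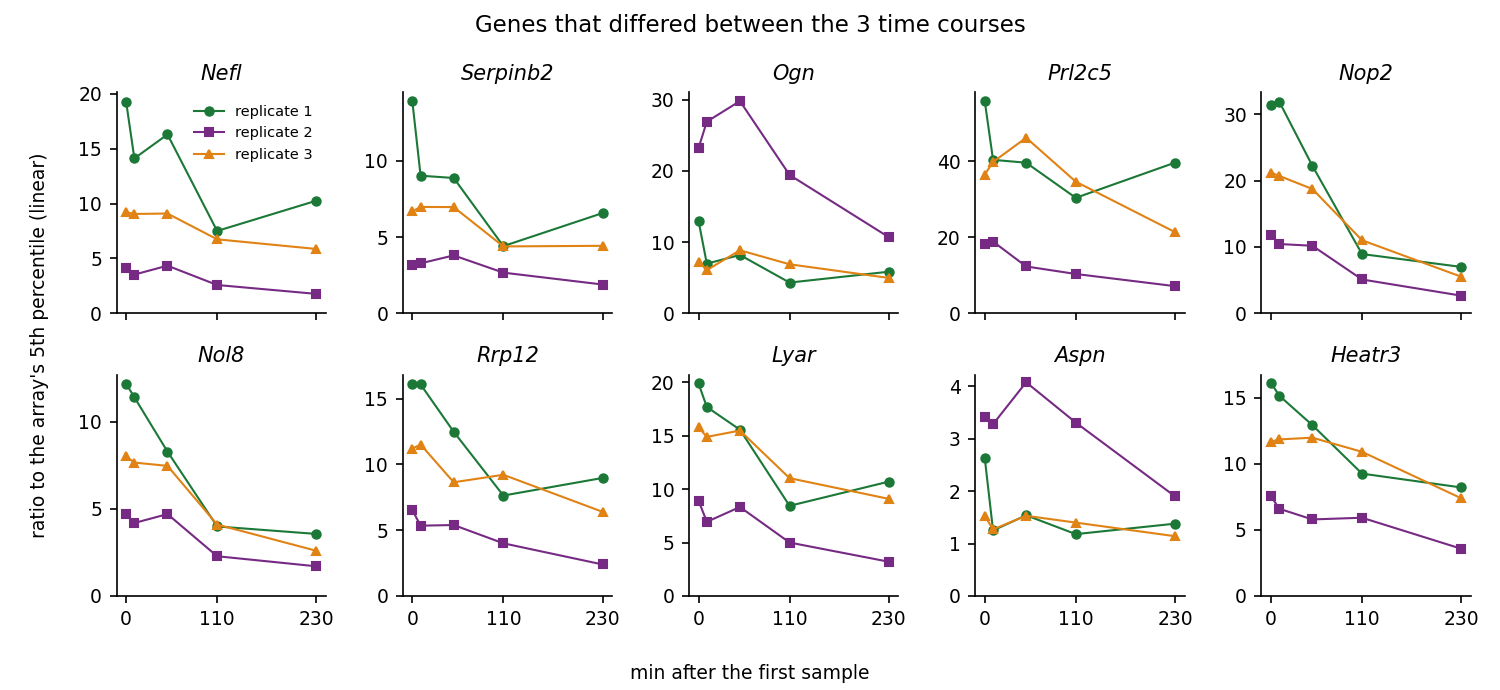
Ratio to the array's 5th percentile (y axes, linear, from 0) over time (x axes, min after the first sample) in each of the 3 time courses (colours) for the 10 genes that differed between courses. Replicate 2 is at an edge at all 5 times, above the others for Ogn and Aspn and below them for the other 8 genes. The later times served to choose the genes, and 0 min did not.

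The 10 min arrays were compared with 0 min to see how far the 0 min profile holds over the next minutes. With limma, the replicate as a block, 0 of 19452 genes (0%) passed an adjusted p of 0.05 in either direction, and the smallest adjusted p was 1.00. At an unadjusted p under 0.05 there were 465 of 19452 genes, less than the share of 0.05 that this threshold passes where nothing differs. Of these 451 were lower at 10 min and 14 higher, against a median difference of -0.08 log2 over all genes. That median was 0.04 with array medians, 0.03 with 75th percentiles and 0.00085 after quantile normalization, so its direction depended on the scaling. By band, 1542 of the 1645 genes abundant at 0 min (93.7%) were again abundant at 10 min with that time's own limits, 1466 (89.1%) at 110 min and 1408 (85.6%) at 230 min, when 261 others had entered the band.

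After 230 min, 14082 genes (72.4%) fell and 10 (0.0514%) rose relative to the dimmest probe sets (limma, adjusted p under 0.05), with a median of -0.59 log2 over all genes. Without the replicate block 31 rose in place of 10. This split follows the scaling. Dividing arrays by their median left 3513 fallen and 7324 risen genes, dividing them by their 75th percentile 1412 and 13731, and after quantile normalization 2356 and 2660. Without replicate 2, on the deposited scale, 8649 fell and 2 rose. The lists are therefore given relative to the median of all genes, a difference that division by a constant leaves as it is but quantile normalization does not. For mitosis the difference was -0.80 log2, and -0.38 after quantile normalization, and 59 of 59 members fell on the deposited scale, 36 with array medians, 23 with 75th percentiles and 32 after quantile normalization.

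For the other lists named here the difference was smaller in size, and it too changed with quantile normalization. For the G1 list it was -0.59, with 29 of 30 fallen, and -0.11 after quantile normalization, with 11 fallen and 3 risen. For DNA replication it was -0.36, with 46 of 47 fallen, and then -0.09, with 17 fallen and 6 risen. For Wnt, Notch, Hedgehog and TGF-beta receptors it was -0.33, with 37 of 38 fallen, and then -0.09, with 8 fallen. For myogenic regulators it was -0.28, with 21 of 24 fallen, and then -0.05, with 7 fallen. Collagens went the other way. They differed by 0.04 with 36 of 40 fallen on the deposited scale, and by 0.32 after quantile normalization with 0 fallen and 24 risen. With array medians 9 of the 40 collagens rose and with 75th percentiles all 40. Ribosomal proteins differed by 0.14, with 27 of 55 fallen, and by -0.04 after quantile normalization, with 2 fallen. Stress fibre genes differed by 0.05 and 0.02 and blood cell markers by 0.33 and 0.03. In all these lists 0 genes rose on the deposited scale. The median of all genes counts genes at background, where a loss can hardly be seen. Over the 9726 genes above the median level of the 15 arrays the median was -0.95 log2. Of these lists only mitosis (-1.39) and the G1 list (-1.18) had a lower median. DNA replication (-0.95), the receptors (-0.91) and myogenic regulators (-0.87) were not lower. Collagens (-0.55), stress fibre genes (-0.53) and ribosomal proteins (-0.45) were above it.

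The 10 largest falls were the same in direction and passed the test under each of the 11 alternatives run. They were the histone genes H2ac15, H1f5 and H1f1, Ccn1, Nup62, Fbxo5, Tmem11, Cited2, Plk2 and Id2. H1f5, a linker histone, went from 114 ± 33.0 to 6.45 ± 2.72 (SD, n = 3), a difference of -4.21 ± 0.31 (SE) log2 (limma, adjusted p = 5.64e-07). Fbxo5, an inhibitor of the anaphase-promoting complex, went from 22.6 ± 7.08 to 1.61 ± 0.206, so that an abundant transcript at 0 min ended near the ceiling. Of the markers, Myod1 went from 27.3 ± 2.74 to 4.84 ± 1.8 (-2.57 ± 0.23 log2, limma, adjusted p = 1.81e-06) and Myf5 from 5.46 ± 0.741 to 1.94 ± 0.41 (-1.50 ± 0.20 log2, adjusted p = 3.45e-05), while Des, from 42.3 ± 7.73 to 30.8 ± 6.06, did not pass (adjusted p = 0.0673). For Ccnd1 the difference was -0.57 ± 0.17 log2 (limma, adjusted p = 0.0106), a call lost without the replicate block (adjusted p = 0.0859) and without replicate 2 (adjusted p = 0.107). Des passed as a fall with dim genes left out (limma, adjusted p = 0.0316) and with only the arrays of both times (adjusted p = 0.0202). For Des and Ccnd1 the difference changed sign with array medians, with 75th percentiles and after quantile normalization. As rises, Des passed with 75th percentiles (limma, adjusted p = 0.000115) and quantile normalization (adjusted p = 0.0205), and Ccnd1 with 75th percentiles (adjusted p = 0.00015). Among the 10 rises, 9 were of genes at background at 0 min. The tenth was Usp17ld, a deubiquitinase of a multicopy family, at 10.7, 4.53 and 7.43 at 0 min and 25.7 ± 5.47 at 230 min, whose relatives make its level uncertain.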

How the data were processed

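C2C12 RNA (300 ng per array) was hybridised to 15 Affymetrix Mouse Gene 1.0 ST arrays, 1 per time and replicate time course, and groups were taken from the sample titles. The values deposited are linear ratios, for which the authors divided each array by its 5th percentile. How background was corrected and probes were summarised, and with which software, is not given in the sources used here. Division by a low percentile leaves differences in spread between arrays in place, so bright genes can differ by array, and no absolute amount is kept. Of 25175 probe sets, 1492 with several symbols and 2639 without one were left out, and 20959 of 21044 were matched by gene number to RefSeq names (GRCm38.p6, used for names, promoters and gene order). Each gene was read from its brightest probe set, by the mean of the 3 arrays at 0 min. The members and lists were chosen with earlier results of these data known. Named are list members, the 20 highest genes, genes next to a limit, and the genes past the test between courses or the 10 largest falls and rises between times. Dynap, Nhp2, Omd and Iars are named outside this rule, chosen after their values were seen. Band limits were set on each array, and the ceiling by chemosensory receptor genes. Times were compared with limma 3.58.1 (R 4.3.3) on log2 ratios of all 15 arrays, time as a factor and the replicate course as a block, with eBayes and Benjamini-Hochberg adjustment over 19452 genes at 0.05. The labels number the courses, and 29 of 30 same-numbered array pairs correlated above 0.1 in their deviations from the time means (median 0.40), against 14 of 60 pairs with different numbers. Courses were compared on the 12 later arrays. The scripts were tested on simulated data. Tables used pandas 2.3.3 and Python 3.11.15. With 3 arrays per time, their number limits the precision.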

Additional observations from a re-analysis of the deposited data

How the results depend on the processing

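Band sizes follow the limits chosen. From the 75th or 95th percentile, 4360 or 810 genes were abundant. With the ceiling at the 99th percentile of the chemosensory genes, at the 95th percentile of organ secretory genes or at the median of all genes, 8229, 9128 and 9268 genes were at background. Genes with a range over 2-fold at 0 min numbered 81 after quantile normalization, and 13 to 275 with a replicate left out, an alternative chosen after seeing the data. For 10 min, 0 genes passed limma's test in either direction under the alternatives run, with or without the replicate block. For 230 min, without the pairing of courses as a block 13930 fell and 31 rose, and the call of Ccnd1 was lost. The numbers fallen and risen were 3513 and 7324 with each array divided by its median, 1412 and 13731 with the 75th percentile, and 2356 and 2660 after quantile normalization. With a replicate left out 8649 to 13623 fell and 2 to 4 rose. The number risen was 1 with dim genes left out, 5 with log2(ratio + 1), 135 with a trended robust variance, and 2 with only the arrays of both times. Des reversed to 0.29 (median), 0.74 (75th percentile) and 0.29 (quantile) log2, and Ccnd1 to 0.18, 0.63 and 0.10. Genes that differed between courses numbered 546 with all 15 arrays, 605 with medians, 2539 after quantile normalization, 743 with dim genes left out, 366 with a trended robust variance, 0 without the 10 min or 50 min arrays, 198 without 110 min and 34 without 230 min. Apart from the scalings, left-out arrays and filters, whose construction changes the values or genes tested, the cause was not tested. Signal over background limits the low lists: a gene near the ceiling can change band with the yardstick, and a loss from such a level can hardly be seen.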
